A study of Homo sapiens with 4 samples.

Results

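The unfolded protein, ATF4 and heat shock responses were followed through 49 genes, a list defined by gene function. Of these, 48 were measured, among 18417 genes that had a transcript cluster naming a single gene. The list holds 22 genes of the endoplasmic reticulum (ER) and its unfolded protein response, 14 genes of the ATF4 arm and 13 genes of cytosolic and mitochondrial chaperones with their regulator HSF1. PDIA3, a disulfide isomerase of the ER, had no cluster naming it alone and is not analysed here. RNA came from MDA-MB-468, an established human breast cancer line whose endogenous p53 carries R273H, transduced on 2 arrays with the p53-directed lentiviral shRNA p53si-1 and on 2 arrays with non-targeting lentiviral shRNA (NS). All 4 arrays thus hold cells that received a lentivirus and an shRNA, and the p53 side rests on a single shRNA sequence in a single line. Each value is a log2 RMA signal, and each fold change is the mean of the p53si-1 arrays minus the mean of the NS arrays on that scale. The study's methods and results text differ on the time between transduction and RNA isolation, and the sample labels give none, so no time is stated. How far p53 was silenced is not given, because its transcript is not analysed here.

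When unfolded proteins gather in the ER, the membrane sensors IRE1 (gene ERN1), PERK (gene EIF2AK3) and ATF6 raise chaperones, folding enzymes and the machinery that returns damaged proteins to the cytosol for degradation. PERK also phosphorylates the initiation factor eIF2, which favours translation of ATF4, a transcription factor that raises genes of amino acid synthesis and, when stress lasts, the pro-apoptotic factor CHOP (gene DDIT3). In the cytosol, HSF1 is held in check by chaperones and, once freed by heat or other protein damage, raises the HSP70 and HSP90 families and their helpers. Tumor cells often keep these pathways active to cope with a high load of protein synthesis.

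Promoter sequences are printed because a DNA element is described for each arm, though not every gene of an arm carries it. Windows of 250 bases before to 50 bases after each start were taken from RefSeq on GRCh38.p14 and matched 44 of the 49 genes. They were searched on both strands for the ER stress element, which is CCAAT and CCACG with 9 bases between them. This element was found in 6 of the 21 ER genes with a window. It was found in 0 of 11 of the ATF4 arm and in 0 of 12 of the cytosolic and mitochondrial chaperones. Over all promoters it occurs in 0.0916% of 27305 genes and in 0.0769% of 35116 windows. The HSPA5 window, for the ER HSP70 known as BiP, carried it 66 bases before the start, with the element in capitals and the sequence running 5′ to 3′ along the gene at chr9:125241344-125241593 (minus strand).
HSPA5: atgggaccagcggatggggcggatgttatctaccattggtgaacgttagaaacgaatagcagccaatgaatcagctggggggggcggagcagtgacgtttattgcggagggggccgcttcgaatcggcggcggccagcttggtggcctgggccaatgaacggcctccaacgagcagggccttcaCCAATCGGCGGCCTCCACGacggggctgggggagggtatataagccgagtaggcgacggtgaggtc

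The other matches are shown with up to 15 bases on each side, in the direction of each gene, and the element appears as its reverse complement where it lies on the opposite strand. HSP90B1 had a pair of matches, one on each strand.
CALR, chr19:12938369-12938417 (+ strand): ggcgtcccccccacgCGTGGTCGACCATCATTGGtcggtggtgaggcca
CANX, chr5:179698763-179698811 (+ strand): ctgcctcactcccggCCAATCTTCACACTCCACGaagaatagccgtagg
CRELD2, chr22:49918539-49918587 (+ strand): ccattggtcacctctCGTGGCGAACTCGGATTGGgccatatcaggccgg
HSP90B1, chr12:103930201-103930249 (+ strand): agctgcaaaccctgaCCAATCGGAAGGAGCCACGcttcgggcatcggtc
HSP90B1, chr12:103930306-103930354 (+ strand): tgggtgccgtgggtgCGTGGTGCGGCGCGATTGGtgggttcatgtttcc
PDIA6, chr2:10812838-10812886 (- strand): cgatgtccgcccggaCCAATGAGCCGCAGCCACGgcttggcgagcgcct

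The C/EBP-ATF element, searched as TGATGNAA, was found in 2 of the 11 ATF4 arm genes with a window and in the ER gene HERPUD1. Over all genes with a window the share was 4.46%. The C/EBP-ATF element is in capitals below.
ASNS, chr7:97872454-97872491 (- strand): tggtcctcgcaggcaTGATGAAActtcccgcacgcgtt
CHAC1, chr15:40953247-40953284 (+ strand): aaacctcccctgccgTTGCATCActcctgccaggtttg
HERPUD1, chr16:56931951-56931988 (+ strand): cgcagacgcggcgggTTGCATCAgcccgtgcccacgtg

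The heat shock element was searched as 3 alternating GAA and TTC units with 2 bases between neighbours. It was found in 5 of the 12 cytosolic and mitochondrial chaperone genes with a window and in 0 genes of the other classes. Over all genes with a window the share was 0.608%. HSPD1 had a further match that overlaps the one shown.
DNAJA1, chr9:33025261-33025303 (+ strand): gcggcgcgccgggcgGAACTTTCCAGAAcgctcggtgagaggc
HSP90AA1, chr14:102087105-102087147 (- strand): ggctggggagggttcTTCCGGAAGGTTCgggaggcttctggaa
HSP90AB1, chr6:44247763-44247805 (+ strand): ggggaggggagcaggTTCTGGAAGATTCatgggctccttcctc
HSP90AB1, chr6:44247816-44247858 (+ strand): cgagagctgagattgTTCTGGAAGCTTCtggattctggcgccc
HSPA8, chr11:123062164-123062206 (- strand): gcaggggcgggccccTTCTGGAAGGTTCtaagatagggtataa
HSPA8, chr11:123062339-123062381 (- strand): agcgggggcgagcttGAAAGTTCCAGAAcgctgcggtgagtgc
HSPD1, chr2:197500053-197500090 (- strand): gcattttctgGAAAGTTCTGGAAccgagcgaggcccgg

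These matches are descriptions of the sequence and not binding sites. On the arrays, the 6 genes with an ER stress element had log2 fold changes between -0.23 (CRELD2) and 0.09 (CANX) with a median of -0.08. The 5 genes with a heat shock element lay between -0.13 (HSP90AA1) and 0.12 (HSPA8) with a median of 0.07, and the 3 genes with a C/EBP-ATF element were at -0.04 (ASNS), -0.11 (CHAC1) and 0.19 (HERPUD1).

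Over the whole series, 20 genes (0.109%) passed an adjusted p of 0.05 from limma, 50 genes (0.271%) were over 1.5-fold higher and 120 genes (0.652%) over 1.5-fold lower with p53si-1. The labelled cell type was checked against markers. The 6 epithelial markers EPCAM, CDH1, KRT8, KRT18, KRT19 and EGFR lay between 9.38 and 12.6 log2 units on the p53si-1 arrays and between 9.46 and 12.5 on the NS arrays. Of 13 measured markers of leukocytes, fibroblasts and endothelium, 10 had a mean over the arrays below the median of all genes (6.59). PTPRC lay between 3.01 and 3.14 on the p53si-1 arrays and between 3.06 and 3.12 on the NS arrays. CD68, also among the 10, read 6.73 and 6.38 with p53si-1, against 6.81 and 6.26 with NS. CD14, COL1A1 and KDR were above that median. CD14 read 9.81 and 9.69 with p53si-1, against 9.92 and 9.71 with NS, within the range of the epithelial markers. COL1A1 read 7.22 and 7.05 with p53si-1, against 7.25 and 7.32 with NS. KDR read 8.91 and 9.18 with p53si-1, against 8.36 and 8.73 with NS. Its log2 difference of 0.50 was the largest of the markers, and no marker passed limma. The study's supplement describes the replicates as independent experiments, and p-values measure the spread between these arrays. The number of arrays limits the precision, and an exact two-sided permutation test of 2 against 2 arrays cannot give a p below 0.333.

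None of the 48 measured stress-response genes passed an adjusted p of 0.05 from limma, and none was over 1.5-fold higher or lower. The count of genes passing was 1, PSPH, when the prior variance followed the signal, and 0 in the other fits tried. At an unadjusted p under 0.05 there was 1 higher gene, SEL1L, and there were 5 lower ones, PSPH, DNAJB4, SDF2L1, HSF1 and EIF2AK3, against 5.45% of all genes higher and 6.8% lower by that measure. The 95% interval of the fold change lay inside 1.5-fold on both sides for 45 of the 48 genes, against 91.9% of all genes, so for those 45 a larger change lies outside the interval these arrays give. The other 3 were PSPH, DNAJB4 and STC2. In all, 45 of the 48 differed by under 1.2-fold, as did 89.4% of all genes, and the median absolute log2 difference was 0.105 for the list and 0.093 for all genes. By mean signal, 0 of the 48 lay in the dimmest 25% of genes (below 4.72 log2 units), which holds 4604 of the 18417. The array shares given for all genes, here and below, were not matched to the list for signal.

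**Figure D1:**
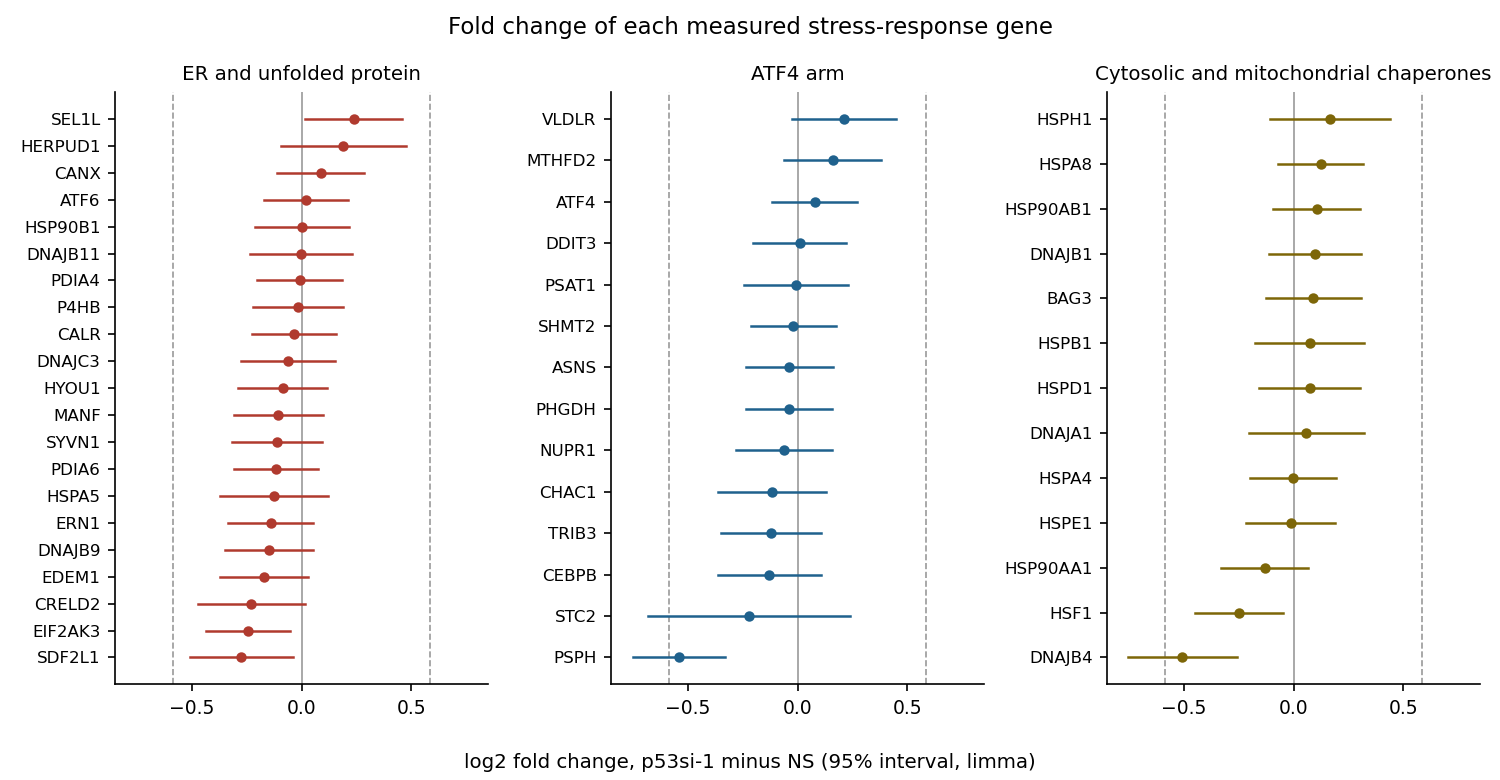
Log2 fold change (horizontal axis, p53si-1 minus NS) of each of the 48 measured genes, in 3 panels by class, with points for the estimate and lines for the 95% interval from limma. Dashed lines mark 1.5-fold, which the intervals of PSPH, DNAJB4 and STC2 reach on the lower side and no interval reaches on the higher side.

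The ER class had more members lower than higher. Of its 21 measured genes, 16 (76.2%) had a lower and 5 a higher mean with p53si-1, against 52.6% of all genes lower. The median log2 fold change was -0.09, against -0.01 over all genes. In 12 of the 21 (57.1%) both p53si-1 arrays lay below both NS arrays, against 22.6% of all genes, and in 3 of the 21 both lay above, against 19.9% of all genes. These are counts over genes of shared arrays and no test of the class was made. The class medians relative to the NS means were -0.10 and -0.07 on the p53si-1 arrays, and 0.0025 and -0.0025 on the NS arrays. Over all genes these medians were 0.002 and -0.021 on the p53si-1 arrays, and 0.003 and -0.003 on the NS arrays.

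Among the chaperones and folding enzymes, 14 were measured and 12 of them had a lower mean. SDF2L1, a small ER protein of the BiP complex, read 8.72 and 8.54 with p53si-1, against 8.94 and 8.86 with NS. Its groups did not overlap, and its log2 fold change was -0.27 with a standard error of 0.10 (adjusted p = 0.341 from limma). CRELD2, a secreted ER stress protein with disulfide isomerase activity, read 7.63 and 7.82 with p53si-1, against 8.003 and 7.90 with NS. It also did not overlap, at -0.23 with a standard error of 0.10 (adjusted p = 0.428 from limma), though the difference between same-numbered arrays was -0.38 for replicate 1 and -0.08 for replicate 2, and it was -0.13 without replicate 1 of p53si-1. HSPA5, the central ER chaperone and the usual readout of ER stress, read 11.12 and 11.34 with p53si-1, against 11.36 and 11.35 with NS. Its log2 difference of -0.13 (standard error 0.10, adjusted p = 0.682 from limma) rested on replicate 1 of p53si-1, and without that array it was -0.016, against -0.24 without replicate 2 of p53si-1.

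The other chaperones and folding enzymes of the ER differed by 0.15 or less on the log2 scale. HSP90B1, the ER HSP90 known as GRP94, was at 0.00, the lectin chaperones CALR and CANX were at -0.04 and 0.09, and the disulfide isomerases P4HB, PDIA4 and PDIA6 were at -0.02, -0.01 and -0.12. PDIA6 gave 13.16 and 13.16 with p53si-1, against 13.28 and 13.27 with NS, without overlap. The J-domain co-chaperones DNAJB9, DNAJB11 and DNAJC3 were at -0.15, -0.00 and -0.06, the nucleotide exchange factor HYOU1 at -0.09 and MANF, a secreted ER stress protein, at -0.11. Their adjusted p from limma ran from 0.535 for DNAJB9 to 0.994 for DNAJB11.

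The genes of ER-associated degradation gave differences in both directions. SEL1L, the scaffold of the HRD1 ubiquitin ligase, read 8.71 and 8.83 with p53si-1, against 8.48 and 8.59 with NS. It had the highest log2 difference of the list, 0.24 (standard error 0.09, adjusted p = 0.376 from limma), and both same-numbered pairs gave 0.24. SYVN1, which encodes HRD1 itself, was at -0.11, and EDEM1, which helps mark misfolded glycoproteins for removal, was at -0.17. HERPUD1, a membrane protein that organizes the ligase, read 11.61 and 11.38 with p53si-1, against 11.41 and 11.21 with NS. Its groups overlapped although both pairs were higher, by 0.20 for replicate 1 and 0.18 for replicate 2.

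Of the sensors, EIF2AK3 and ERN1 had lower means with p53si-1 and ATF6 showed little difference. EIF2AK3 read 7.88 and 7.86 with p53si-1, against 8.10 and 8.13 with NS, and its log2 fold change was -0.24 (standard error 0.08, adjusted p = 0.311 from limma). ERN1 read 6.10 and 6.07 with p53si-1, against 6.24 and 6.21 with NS, at -0.14 (adjusted p = 0.545 from limma). For both sensors the groups did not overlap and the replicates were within 0.031 of each other. ATF6 read 9.92 and 9.92 with p53si-1, against 9.89 and 9.91 with NS, and differed by 0.02, with a 95% interval of -0.17 to 0.21. These arrays read transcript levels and do not show whether a sensor was active.

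**Figure D2:**
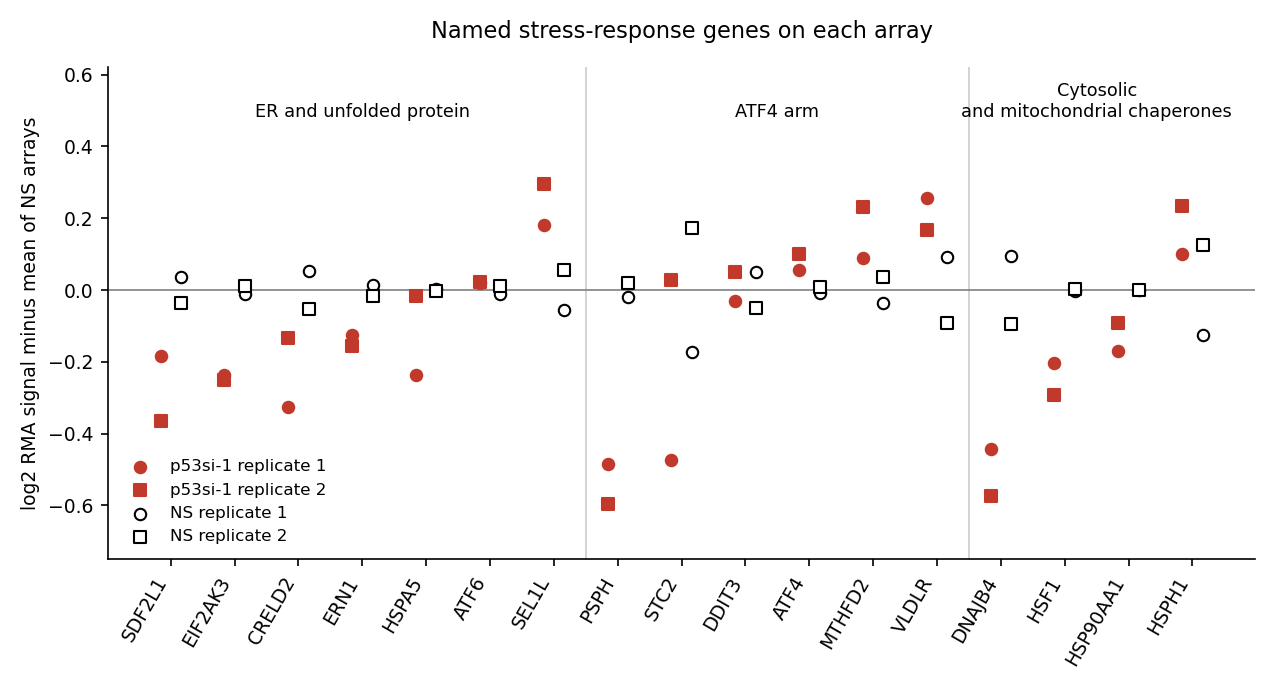
Distance of every array from the NS mean in log2 RMA units (vertical axis) for 17 named genes, grouped by class. Red filled symbols are p53si-1 arrays, open symbols are NS arrays, circles are replicate 1 and squares replicate 2. PSPH and DNAJB4 show the widest gaps between groups, and the 2 arrays of each group lie far apart for STC2.

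In the ATF4 arm, 10 of 14 genes (71.4%) had a lower mean and 4 a higher mean, against 52.6% of all genes lower. The median log2 fold change was -0.04. Both p53si-1 arrays lay above both NS arrays for 3 of the 14 genes and below them for 2, against 19.9% and 22.6% of all genes. The regulators showed little difference. ATF4 read 11.71 and 11.76 with p53si-1, against 11.65 and 11.66 with NS, and its log2 fold change was 0.08 with a 95% interval of -0.12 to 0.27 (adjusted p = 0.76 from limma). A second, dimmer cluster of ATF4 read 8.45 and 8.55 with p53si-1, against 8.24 and 8.49 with NS. Its groups overlapped and it gave 0.13. ATF4 is controlled largely at translation, which arrays do not read. DDIT3 read 8.66 and 8.74 with p53si-1, against 8.74 and 8.64 with NS, and the groups overlapped with a difference of 0.01 (95% interval -0.20 to 0.22). TRIB3, a pseudokinase induced by CHOP, was at -0.12, CHAC1, which degrades glutathione, at -0.11, CEBPB, a partner of ATF4, at -0.13 and the stress regulator NUPR1 at -0.06, and the groups of all 4 overlapped.

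Of the enzymes of amino acid synthesis and folate metabolism, PSPH stood apart from its pathway neighbours in size. PSPH, the phosphatase that makes serine from phosphoserine, read 10.81 and 10.70 with p53si-1, against 11.27 and 11.31 with NS. Its mean was 10.75 ± 0.08 with p53si-1 and 11.29 ± 0.03 with NS (SD, n = 2 arrays each), which is 1.45-fold lower, a log2 difference of -0.54 (standard error 0.09, adjusted p = 0.0903 from limma). Only 1.2% of all genes differed by more, and the gap was -0.46 between the replicate 1 arrays and -0.62 between the replicate 2 arrays. A second cluster of PSPH read 10.14 and 10.17 with p53si-1, against 10.55 and 10.67 with NS, and gave -0.45. RefSeq lists 1 pseudogene named after PSPH, whose transcripts may share probes with it. The cluster used was chosen by brightness, and whether it lies at PSPH itself or at a copy was not checked. PSPH passed in limma when the prior variance followed the signal (adjusted p = 0.0233), and over all settings tried that value lay between 0.0233 and 0.356.

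The enzymes that act before PSPH in serine synthesis had smaller differences. PHGDH, which draws carbon from glycolysis into the pathway, was at -0.04, and PSAT1, the transaminase between them, was at -0.01, with 95% intervals of -0.24 to 0.16 and -0.24 to 0.23. SHMT2, which passes serine carbon to mitochondrial folate, was at -0.02, and ASNS, asparagine synthetase and a classical ATF4 target, was at -0.04. MTHFD2, the mitochondrial folate dehydrogenase, read 10.78 and 10.91 with p53si-1, against 10.65 and 10.72 with NS, and was at 0.16 (adjusted p = 0.545 from limma). The MTHFD2 value was 0.09 without replicate 2 of p53si-1. Its second cluster read 10.28 and 10.67 with p53si-1, against 10.22 and 10.17 with NS, and gave 0.28, mostly from replicate 2 of p53si-1. RefSeq lists 7 pseudogenes named after MTHFD2, 5 after ASNS and 4 each after ATF4 and PSAT1, so signal of such copies may be included in those values.

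VLDLR, a lipoprotein receptor raised by ATF4, read 7.70 and 7.60 with p53si-1, against 7.53 and 7.35 with NS, and was at 0.21 without overlap (adjusted p = 0.453 from limma). Without replicate 2 of NS it was 0.12. STC2, a secreted glycoprotein of the stress response, read 8.59 and 9.09 with p53si-1, against 8.88 and 9.23 with NS. It differed more between replicates than between groups, with replicate 2 above replicate 1 by 0.50 for p53si-1 and by 0.35 for NS. Its log2 fold change of -0.22 had the widest interval of the list, -0.68 to 0.24, and it was 0.03 without replicate 1 of p53si-1 and -0.47 without replicate 2 of p53si-1, and -0.40 without replicate 1 of NS and -0.05 without replicate 2 of NS.

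The cytosolic and mitochondrial chaperones had 8 of 13 genes with a higher and 5 (38.5%) with a lower mean, against 52.6% of all genes lower. The median log2 fold change was 0.07. In 4 genes (30.8%) both p53si-1 arrays lay above both NS arrays, against 19.9% of all genes, and in 3 (23.1%) below, against 22.6%. The median was 0.01 without replicate 1 of NS and between 0.02 and 0.05 without any other array. The difference between the classes was not tested.

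The large chaperones had small differences in both directions. HSPA8, the constitutive cytosolic HSP70, read 13.51 and 13.49 with p53si-1, against 13.37 and 13.39 with NS, at 0.12 (adjusted p = 0.598 from limma), and HSP90AB1, the constitutive HSP90, was at 0.11. HSP90AA1, the stress-inducible HSP90, read 12.01 and 12.08 with p53si-1, against 12.18 and 12.18 with NS, at -0.13 (adjusted p = 0.585 from limma). HSPH1, an HSP110 that serves as exchange factor for HSP70, read 11.10 and 11.23 with p53si-1, against 10.87 and 11.12 with NS, and its log2 fold change of 0.17 came with overlapping groups (adjusted p = 0.619 from limma). The value for HSPH1 was 0.04 without replicate 1 of NS, 0.10 without replicate 2 of p53si-1 and 0.29 without replicate 2 of NS. HSPA4, a relative of HSPH1, was at -0.00. The small heat shock protein HSPB1 was at 0.07 and the mitochondrial chaperonin genes HSPD1 and HSPE1 at 0.07 and -0.01. RefSeq lists 28 pseudogenes named after HSPE1, 22 after HSPD1 and 20 after HSPA8, and their share in these signals is not known.

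Among the co-chaperones, DNAJB4 had the widest gap between groups. DNAJB4, a J-domain partner of HSP70, read 7.11 and 6.98 with p53si-1, against 7.65 and 7.46 with NS. Its mean was 7.05 ± 0.09 with p53si-1 and 7.56 ± 0.13 with NS (SD, n = 2 arrays each), 1.42-fold lower, a log2 difference of -0.51 (standard error 0.10, adjusted p = 0.15 from limma). The same-numbered pairs gave -0.54 and -0.48, and 1.57% of all genes differed by more. The other J-domain genes DNAJB1, a classical heat shock target, and DNAJA1 were at 0.10 and 0.06. BAG3, which couples HSP70 to selective autophagy and is strongly raised by HSF1, read 9.09 and 8.95 with p53si-1, against 8.93 and 8.92 with NS, at 0.09. HSF1, the transcription factor of the heat shock response, read 8.57 and 8.48 with p53si-1, against 8.77 and 8.78 with NS, at -0.25 without overlap (standard error 0.08, adjusted p = 0.32 from limma).

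**Figure D3:**
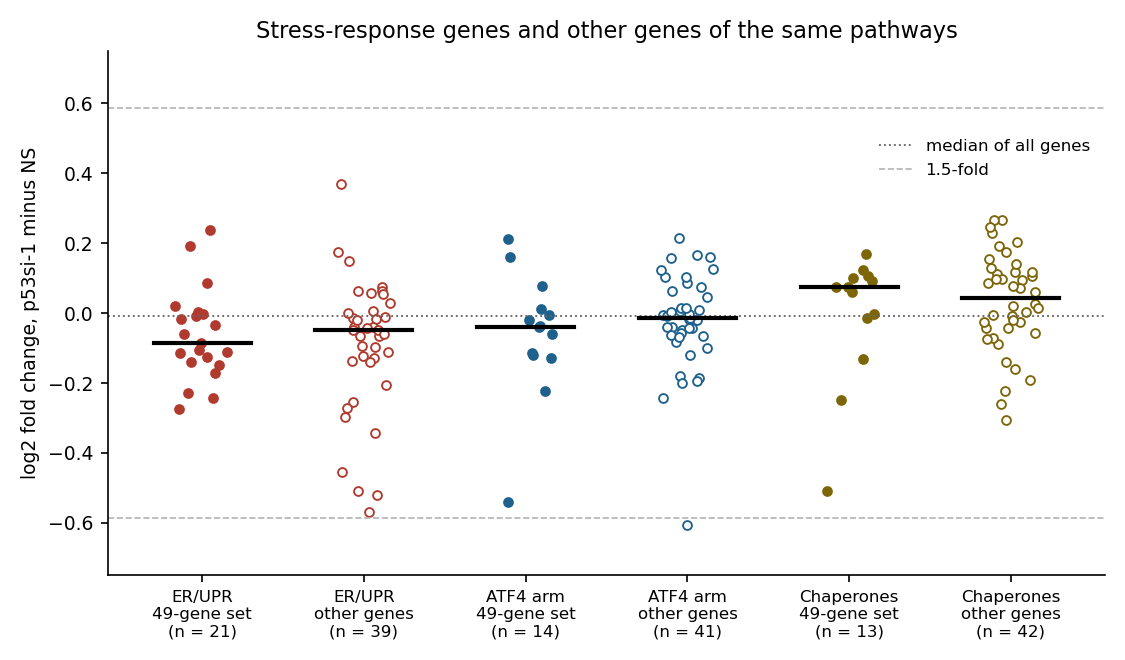
Log2 fold change (vertical axis, p53si-1 minus NS) of the measured genes of each class (filled) and of other genes of the same pathways (open), with black bars for medians, a dotted line for the median of all genes and dashed lines for 1.5-fold. Medians run from -0.09 for the ER class to 0.07 for the chaperones, and SLC7A11 is the only point beyond 1.5-fold.

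Other genes of the same pathways, 136 in lists by function of which 122 were measured, were read in the same way. The lists were chosen with earlier results of these data known and come from the same arrays, so they are no independent check. Counts of lower means below stand beside 52.6% of all genes. None passed limma at an adjusted p of 0.05. At an unadjusted p under 0.05 there were 5 higher and 11 lower, together 13.1% of the 122. Over all genes that share was 12.3%, with 5.45% higher and 6.8% lower. Of 39 other ER genes, 28 had a lower mean and 11 a higher mean, the median was -0.05, and in 17 (43.6%) both p53si-1 arrays lay below both NS arrays, against 22.6% of all genes, and in 3 (7.69%) above, against 19.9%. ERO1B, an oxidase that recharges disulfide isomerases, read 6.37 and 6.27 with p53si-1, against 7.03 and 6.75 with NS, at -0.57 (standard error 0.12, adjusted p = 0.15 from limma). EDEM3, a mannosidase that acts on misfolded glycoproteins as EDEM1 does, read 7.49 and 7.37 with p53si-1, against 7.98 and 7.92 with NS, at -0.52 (standard error 0.09, adjusted p = 0.1 from limma). Of 41 other genes of the ATF4 arm, 24 were lower and 17 higher with a median of -0.01. In 8 of the 41 (19.5%) both p53si-1 arrays lay above both NS arrays, against 19.9% of all genes, and in 6 (14.6%) below, against 22.6%. SLC7A11, the cystine transporter and an ATF4 target, read 7.35 and 7.88 with p53si-1, against 8.08 and 8.37 with NS. It was the only one of the 122 beyond 1.5-fold, 1.52-fold lower at -0.61, with a standard error of 0.19 (adjusted p = 0.289 from limma), and was at -0.34 without replicate 1 of p53si-1. Of 42 other chaperone and heat shock genes, 17 were lower and 25 higher with a median of 0.04, and in 19 (45.2%) both p53si-1 arrays lay above both NS arrays, against 19.9% of all genes, and in 6 of the 42 below, against 22.6%. The largest differences there were GRPEL1, an exchange factor of mitochondrial HSP70, with 8.62 and 8.78 with p53si-1, against 9.03 and 8.99 with NS, at -0.31 (adjusted p = 0.272 from limma), and DNAJC2, a ribosome-bound co-chaperone, with 7.86 and 8.09 with p53si-1, against 7.56 and 7.86 with NS, at 0.27 (adjusted p = 0.489 from limma). DNAJC2 was at 0.12 without replicate 1 of NS, 0.15 without replicate 2 of p53si-1 and 0.42 without replicate 2 of NS.

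The spread between replicates was set beside the difference between groups. In 31 of the 48 genes (64.6%) replicate 2 differed from replicate 1 in the same direction for p53si-1 and for NS, against 58.1% of all genes. In 27 of the 48 (56.2%) a replicate difference in at least 1 group exceeded the difference between groups, against 69.1% of all genes. The share was 42.9% for the ER class, 71.4% for the ATF4 arm and 61.5% for the cytosolic and mitochondrial chaperones. Besides STC2, HERPUD1 differed between replicates 2 and 1 by -0.23 for p53si-1 and -0.20 for NS, and DNAJA1 by 0.24 for p53si-1 and 0.09 for NS. For CRELD2 and TRIB3 the replicate differences had opposite signs, at 0.19 and 0.12 for p53si-1 and at -0.11 and -0.13 for NS. The supplement describes independent experiments, the labels do not say whether a number marks one of them, and its part in these differences was not tested.

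**Figure D4:**
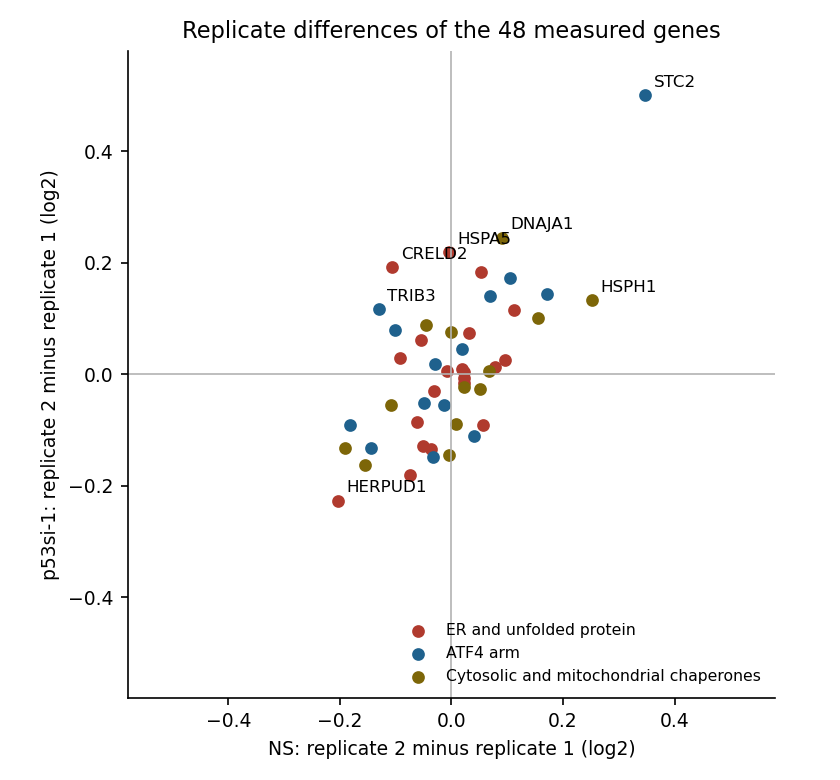
Replicate 2 minus replicate 1 on the log2 scale for p53si-1 (vertical axis) against NS (horizontal axis), each point a measured gene colored by class. STC2 lies farthest out, at 0.50 for p53si-1 and 0.35 for NS, and 31 of the 48 points have the same sign on both axes.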

How the data were processed

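RNA was hybridised to 4 Human Gene 1.0 ST arrays from Affymetrix, 2 for p53si-1 and 2 for NS. The deposited values are log2 signals, taken as such from their range, which the authors made with RMA. Expression Console and GCOS are also named in the submitters' processing notes. RMA is meant to even out the arrays, so a shift shared by most transcripts would be removed, and it shrinks differences of dim probes. The deposited values were not fully level, as a further quantile normalization still moved the class medians. The ER median went from -0.086 to -0.096, the ATF4 median from -0.038 to -0.072 and the chaperone median from 0.073 to 0.040. Of 33297 clusters, 19460 name 1 symbol, and each of 18417 genes was represented by its brightest cluster. Clusters naming no gene or more than 1 gene were left out. Differences were fitted with limma 3.58.1 in R 4.3.3 over all genes (2 residual and 4.20 prior degrees of freedom, Benjamini-Hochberg adjustment, 95% intervals). Only this limma fit was run on simulated data, and its recovery of 1.5-fold changes is not given here. The cluster choice, the class medians and the motif search were not part of that simulation. Probes of one gene were not compared in level with those of another. Promoter windows came from RefSeq (GRCh38.p14).

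The 49 genes were given as a list, and the classes, the further pathway lists and the alternatives were chosen with earlier results of these data known. The named genes are the 4 largest differences per class, the main regulators, and in each further list those beyond 1.5-fold or, failing any, the 2 largest. Array values of HERPUD1, PDIA6, HSPA8 and BAG3 were added after their values were seen. The alternatives changed the cluster, the normalization, the filter on dim genes, the prior variance, the fold and p thresholds, the replicate block and the arrays used.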

Additional observations from a re-analysis of the deposited data

How the results depend on the processing

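The count of stress-response genes called by limma was 0 in all settings at an adjusted p of 0.05 except with a prior variance that follows the signal, where it was 1, PSPH. At an adjusted p of 0.1 it was also 1. The count beyond 1.5-fold was 1 after quantile normalization (PSPH) and ran from 0 to 1 without any one array, with PSPH beyond it without p53si-1 replicate 1 and DNAJB4 without NS replicate 2. At a 1.3-fold criterion it was 2, PSPH and DNAJB4.

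The class medians kept their signs in every setting. After quantile normalization the medians of the ATF4 arm and the chaperones were -0.072 and 0.040. After median centring the ER, ATF4 and chaperone medians were -0.074, -0.026 and 0.085. Without any one array they ran from -0.096 to -0.059, from -0.043 to -0.026 and from 0.013 to 0.045. The lone array of a group was then assumed to vary like the other group. DDIT3 changed sign after quantile normalization (-0.00099) and ran from -0.040 to 0.061 without any one array, and STC2 ran from -0.47 to 0.028. The causes were not tested.

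The study's supplement describes independent experiments, but neither it nor the labels tie a replicate number of p53si-1 to that of NS. Same-numbered arrays deviated together over all genes (correlation 0.24). With the replicate block 0 of the 48 genes were called, the lowest adjusted p being 0.0761, and 9 had an unadjusted p under 0.05, against 6 without the block. Over all genes the block gave 12 calls, against 20 without it. Over all genes there were 149 calls with a prior variance that follows the signal, 89 without dim genes, 62 after median centring, 28 after quantile normalization, 4 with a robust prior or the most variable cluster, and 0 to 1 without any one array.

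The number of arrays, 2 per group, limits the precision of every value.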
